A study of Homo sapiens with 12 samples.

Results

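The glycolytic enzymes described here are the products of 10 listed genes of the pathway that turns glucose into pyruvate and lactate, taken by their Ensembl identifiers in this order: HK2, GPI, PFKM, PFKL, PFKP, ALDOA, PGK1, ENO1, PKM and LDHA. Of these, 9 had a value among the 17710 genes of the table, and LDHA was not analysed here. RNA was measured on Affymetrix Clariom S human arrays in MM.1S, an established human multiple myeloma cell line, in 12 samples that form 4 groups of 3, with replicates numbered by 3 independent experiments. Cells were grown in RPMI-1640 medium with fetal bovine serum. The Control group was untreated. The PIM group received PIM447, an inhibitor of the PIM family of serine/threonine kinases, at 100 nM for 24 h. The Pd group received pomalidomide, an immunomodulatory drug that acts through the ubiquitin ligase component cereblon, at 200 nM and dexamethasone, a synthetic glucocorticoid, at 5 nM for 15 h. The PIM-Pd group received all 3 agents at the same doses for 10 h. Viability of treated cells was 74 to 81% by the labels. Each treatment had its own exposure time and the time of the Control samples was not given in the sources used here, so treatment and time cannot be told apart. Markers of plasma cells and of other cell types could not be matched to the identifiers of the table, so the label of the cell line was not checked against them.

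Glycolysis traps glucose in the cell as a phosphate, splits it into 3-carbon sugars and recovers ATP and NADH in the later steps. Hexokinase opens the pathway, phosphofructokinase is its main point of control, phosphoglycerate kinase and pyruvate kinase make the ATP, and lactate dehydrogenase regenerates NAD+. Many tumour cells run the pathway at a high rate even with oxygen present, and several of its genes are known targets of the transcription factors MYC and HIF1A. In bulk RNA, fewer cells holding a transcript and less transcript per cell cannot be told apart.

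Values are on the log2 scale, on which a difference of -1 is a halving of the signal, and the probes of a gene are compared only with themselves across samples. The 12 arrays had medians between 4.81 and 4.89 log2 units, and each array had a mean correlation of 0.9867 to 0.9926 with the other arrays of its own group. Genes were called changed at a Benjamini-Hochberg adjusted p under 0.05 from limma over all 17710 genes. Calls between a pair of groups were repeated in 19 refits, 7 with another setting and 12 with 1 sample left out. Under a fold rule that also asks for a log2 difference of at least 1 in size, none of the 9 enzymes was called in any comparison.

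The triple combination had 3 of the 9 enzymes below untreated cells, PFKM, PGK1 and ENO1, where 5.02% of all genes (889 of 17710) were called lower. With Pd, 2 of the 9 were lower, HK2 and ENO1, beside 1.94% of all genes (344 of 17710). With PIM447 alone limma called 0 of the 9 enzymes, and 0% of the 17710 genes passed in either direction. At an unadjusted p under 0.05 that comparison held 1098 genes, with 2 of the enzymes, PGK1 and PKM, among them. None of the 9 enzymes was called higher in these 3 comparisons with Control, where 0% (PIM), 3.48% (Pd, 616 genes) and 4.42% (PIM-Pd, 782 genes) of all genes were.

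The middle of the list lay below that of the array in each treated group. The median log2 difference of the 9 enzymes from Control was -0.24 in PIM, -0.28 in Pd and -0.40 in PIM-Pd, and the medians over all genes were 0.01, -0.01 and 0.01. In each of these comparisons 8 of the 9 differences were below 0, whereas 47.4%, 52.1% and 48.3% of all genes were. The 3 comparisons share the Control samples, and the enzymes were listed with earlier results of these data known, so the medians are a description.

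Some enzymes had all samples of a treated group below all Control samples. In PIM this was 1 of 9 (PFKM), beside 4.99% of all genes (884 of 17710). In Pd it was 5 of 9 (HK2, PFKM, PFKP, PGK1 and ENO1), beside 12.3% (2171 genes), and in PIM-Pd 5 of 9 (HK2, PFKM, PFKL, PGK1 and ENO1), beside 12.5% (2209 genes). Some gaps were narrow. The highest PIM-Pd and lowest Control values were 5.04 and 5.09 for HK2 and 8.16 and 8.17 for PFKL. For PFKP the highest Pd and lowest Control values were 6.30 and 6.33, and for PFKM the highest PIM and lowest Control values were 7.45 and 7.46. For PFKM, PFKL, PGK1 and ENO1 the PIM-Pd samples were below all 9 samples of the other groups, as for 2.21% of all genes (392 of 17710).

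**Figure D1:**
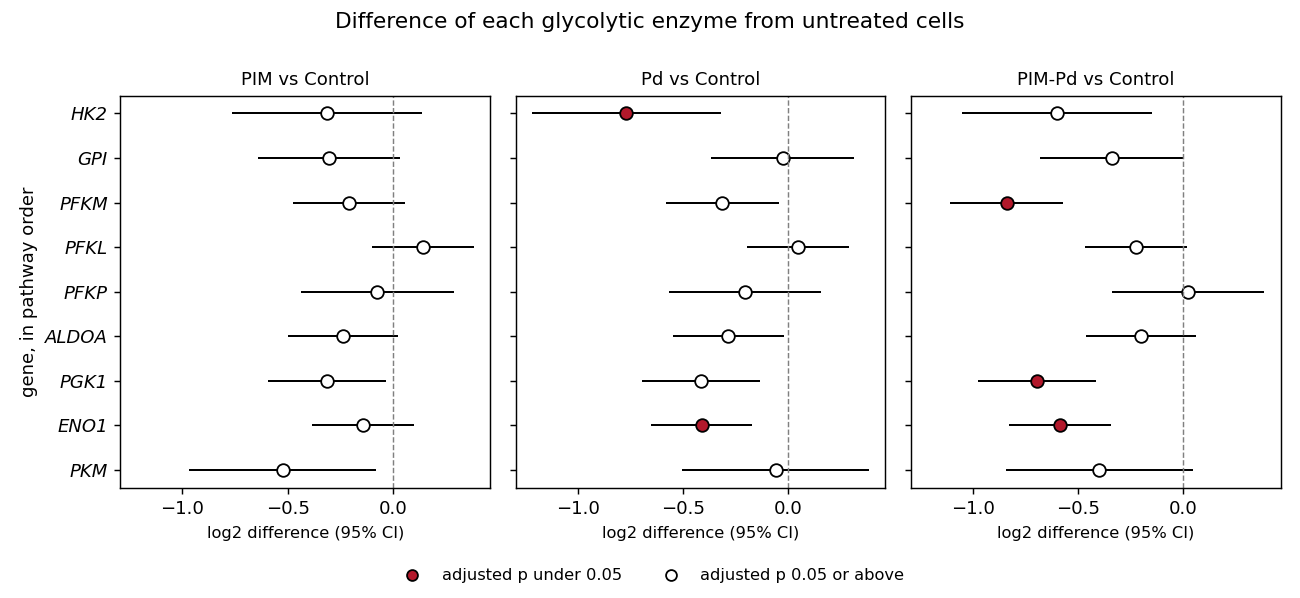
The log2 difference from Control is drawn on the horizontal axis for each of the 9 enzymes, in pathway order from the top, with a panel for each treated group. Points are limma estimates from 3 samples a group, bars are unadjusted 95% confidence intervals and filled points passed the adjusted threshold: none with PIM, HK2 and ENO1 with Pd, and PFKM, PGK1 and ENO1 with PIM-Pd.

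The 4 enzymes called in at least 1 comparison are shown with the 250 bases before their most upstream start in RefSeq (build GRCh38.p14), to set the sequence beside genes that moved in the same direction. The search covered both strands for CACGTG, the E-box bound by MYC and its partners, for ACGTG, the core of the hypoxia response element, which also lies inside each E-box, and for AGAACA, a half-site of the glucocorticoid response element. Capitals mark the core, which reads CACGT where it lies on the other strand. All 9 enzymes had at least 1 start in the RefSeq table.
HK2, chr2:74833877-74834126, forward strand: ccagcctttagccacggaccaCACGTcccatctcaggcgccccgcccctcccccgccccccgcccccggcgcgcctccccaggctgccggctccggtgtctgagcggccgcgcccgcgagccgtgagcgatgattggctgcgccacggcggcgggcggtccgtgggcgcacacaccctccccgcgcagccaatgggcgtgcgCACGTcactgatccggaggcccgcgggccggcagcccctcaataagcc
PFKM, chr12:48105103-48105352, forward strand: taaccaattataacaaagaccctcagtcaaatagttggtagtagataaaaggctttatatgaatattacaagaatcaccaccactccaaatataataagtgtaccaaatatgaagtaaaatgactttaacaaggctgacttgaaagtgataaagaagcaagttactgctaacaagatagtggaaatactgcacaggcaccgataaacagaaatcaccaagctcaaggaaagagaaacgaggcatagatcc
PGK1, chrX:78103998-78104247, forward strand: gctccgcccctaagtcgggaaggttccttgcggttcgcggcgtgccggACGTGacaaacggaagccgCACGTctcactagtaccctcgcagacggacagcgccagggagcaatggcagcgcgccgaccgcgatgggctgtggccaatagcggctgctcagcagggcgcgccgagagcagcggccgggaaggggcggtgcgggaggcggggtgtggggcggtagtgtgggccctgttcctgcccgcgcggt
ENO1, chr1:8878687-8878936, reverse strand: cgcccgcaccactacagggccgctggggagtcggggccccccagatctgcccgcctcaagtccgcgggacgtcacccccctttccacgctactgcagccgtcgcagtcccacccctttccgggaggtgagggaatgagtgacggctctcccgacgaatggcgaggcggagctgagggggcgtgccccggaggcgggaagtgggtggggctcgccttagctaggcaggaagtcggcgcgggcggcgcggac

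The HK2 and PGK1 sequences hold the core at 2 places each, and the PFKM and ENO1 sequences shown do not hold it. HK2 has 2 starts in the table, and its downstream window holds the E-box at 2 places. Of the 7 windows of PFKM, 1 holds the core and 0 hold the E-box. Across the 9 enzymes, 6 have the core in at least 1 window, 2 have the E-box (HK2 and ALDOA) and 2 have the glucocorticoid half-site (GPI and ALDOA). Of all 35116 windows of this length, 18.5% hold the core, 6.34% the E-box and 12.4% the half-site, but the enzymes have from 1 to 7 windows each and their counts are not rates per window. A match is a string of letters and not a measured binding site.

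HK2 (ENSG00000159399_at), hexokinase 2, phosphorylates glucose on entry and is the inducible hexokinase of many tumours. Its mean over the 12 samples, 4.94, lay close to the array medians, and no detection call was used, so its signal over background is not known. Its values in experiments 1, 2 and 3 were 5.09, 5.64 and 5.34 in Control, 5.42, 4.54 and 5.18 in PIM, 4.67, 4.72 and 4.38 in Pd, and 5.04, 4.50 and 4.74 in PIM-Pd. All Pd samples and, by a narrow margin, all PIM-Pd samples lay below all Control samples, while the PIM samples spread across both. With Pd the log2 difference was -0.77 ± 0.21 (SE, n = 3 per group), 58.7% of the Control level with a 95% confidence interval of 43.1 to 80.1%, at an adjusted p of 0.0464 in limma. The PIM-Pd difference was -0.60 and did not pass (adjusted p = 0.0956), and its size depended on the experiment, at -0.05, -1.14 and -0.61. It passed with array weights (adjusted p = 0.0456) or without PIM replicate 2 (0.0345), in a range of 0.0345 to 0.314 over the 19 refits. The Pd call was lost without any single Control sample (adjusted p 0.0523, 0.169 and 0.113 for replicates 1, 2 and 3) or Pd sample (0.111, 0.0724 and 0.192), and without PIM replicate 3 (0.052) or PIM-Pd replicate 3 (0.0588). Its adjusted p ranged from 0.0101 to 0.192 over the 19 refits.

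GPI (ENSG00000105220_at), glucose-6-phosphate isomerase, makes fructose 6-phosphate in a reversible step. Control samples were at 9.40, 9.68 and 9.76, PIM at 8.96, 9.36 and 9.62, Pd at 9.47, 9.67 and 9.63, and PIM-Pd at 9.17, 9.43 and 9.22. Pd lay among the Control samples, and the groups with PIM447 reached lower but overlapped with Control. The log2 difference from Control was -0.30 in PIM, -0.03 in Pd and -0.34 in PIM-Pd, and none passed (adjusted p 0.807, 0.971 and 0.233). The PIM difference was -0.13 without PIM replicate 1 and -0.46 without PIM replicate 3. Within each of the 3 experiments, GPI was below its own control in PIM (-0.44, -0.33 and -0.14) and in PIM-Pd (-0.23, -0.25 and -0.54).

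**Figure D2:**
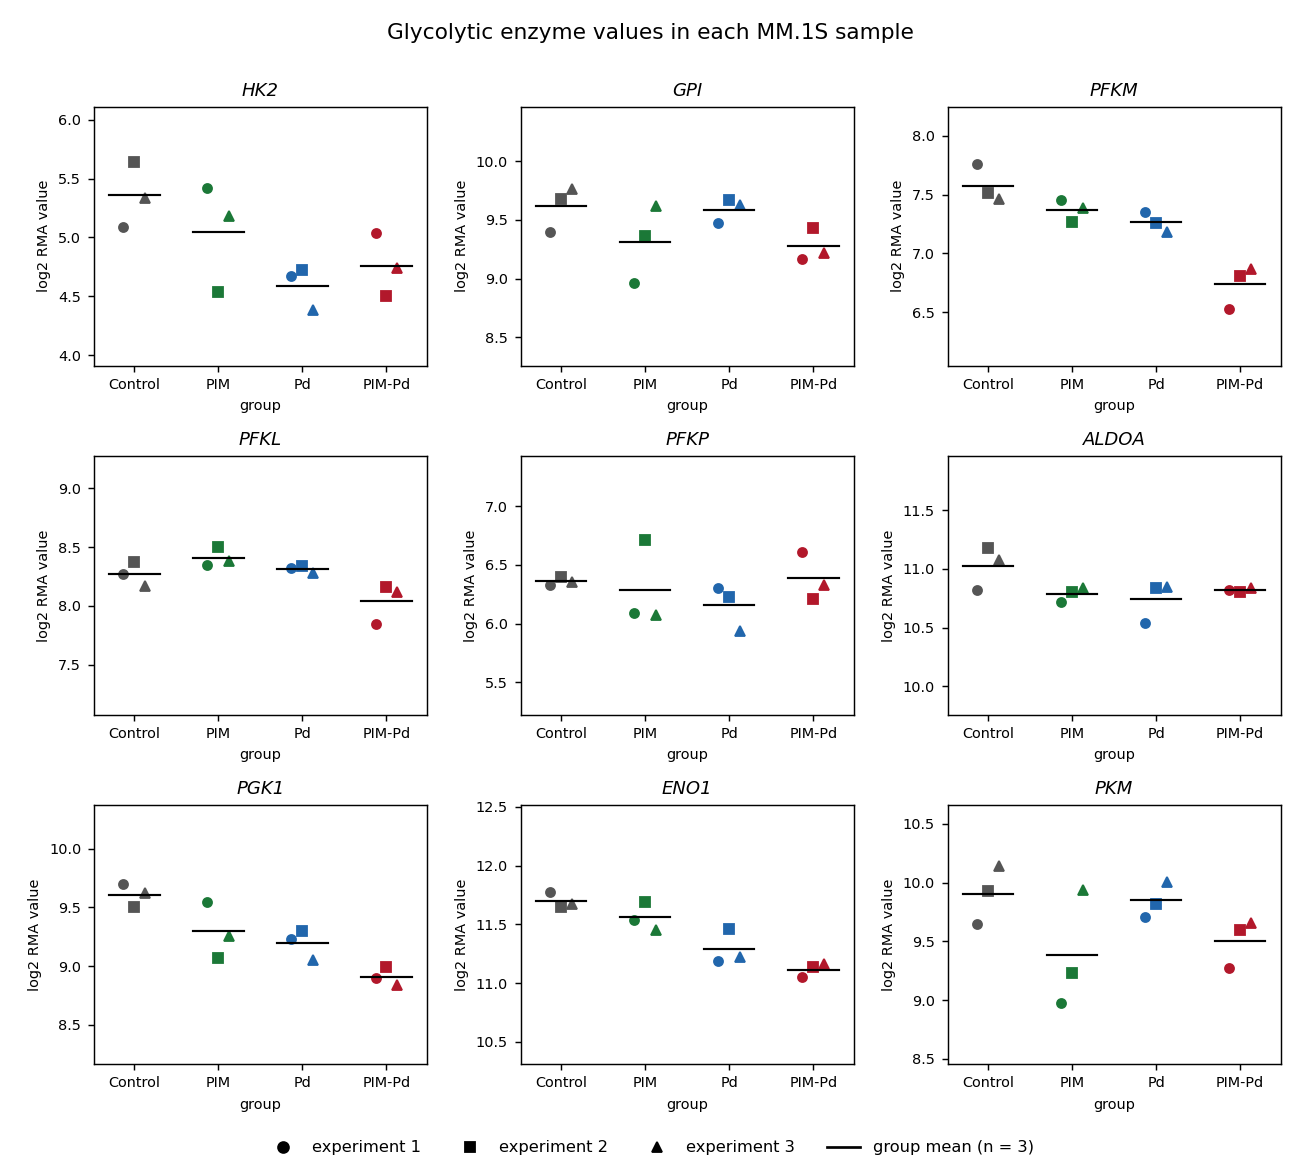
Each panel plots the log2 value of 1 enzyme on the vertical axis for the 12 samples by group, with a marker shape for each experiment and a line at the mean of 3 samples. All panels span the same log2 range around their own centre. PFKM, PFKL, PGK1 and ENO1 have their 3 PIM-Pd samples below the samples of the other groups, and the PIM samples of HK2 and PKM are spread widely.

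Phosphofructokinase, which commits the sugar to glycolysis, has 3 genes named for muscle, liver and platelet, and the tetramers can mix their products. PFKM (ENSG00000152556_at) was at 7.76, 7.51 and 7.46 in Control, 7.45, 7.27 and 7.39 in PIM, 7.35, 7.26 and 7.18 in Pd, and 6.53, 6.81 and 6.87 in PIM-Pd. The PIM-Pd samples were below all 9 others, and the PIM and Pd samples lay between them and Control and overlapped with each other. With PIM-Pd the log2 difference from Control was -0.84 ± 0.12 (SE), 55.9% of the Control level with an interval of 46.6 to 67%, at an adjusted p of 0.000608. It was negative in all 3 experiments, at -1.23, -0.70 and -0.58. PFKM was called in all 19 refits, though not under the fold rule, with adjusted p from 0.000465 to 0.00526.

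PFKM differences in PIM (-0.21, adjusted p = 0.834) and Pd (-0.31, adjusted p = 0.19) did not pass. Neither group overlapped with Control, by a narrow margin in PIM, and the PIM difference was -0.11 without Control replicate 1. PIM-Pd was also below PIM, by a log2 difference of -0.63 (adjusted p = 0.0067), and was called so in all 19 refits, though not under the fold rule. Against Pd the difference was -0.53 with an interval of -0.79 to -0.27, lower in 3 of 3 experiments, and did not pass (adjusted p = 0.168). The departure from additivity, PIM-Pd minus PIM minus Pd plus Control, was -0.32 with an interval of -0.69 to 0.05 (adjusted p = 0.916).

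PFKL (ENSG00000141959_at) was at 8.27, 8.37 and 8.17 in Control, 8.35, 8.50 and 8.38 in PIM, 8.32, 8.34 and 8.28 in Pd, and 7.85, 8.16 and 8.12 in PIM-Pd. PIM samples were each above the control of their experiment, by 0.09, 0.13 and 0.21, and PIM-Pd samples were each below the Pd sample of theirs, at -0.47, -0.19 and -0.16. The PIM-Pd samples lay below all 9 others, by a narrow margin from Control, with a difference from Control of -0.23 that did not pass (adjusted p = 0.278) and was -0.13 without PIM-Pd replicate 1. Neither the PIM difference (0.14, adjusted p = 0.881) nor the PIM-Pd difference from Pd (-0.27, adjusted p = 0.514) passed. The departure from additivity was -0.41 with an interval of -0.75 to -0.08 and an adjusted p of 0.816, so a different response to PIM447 with and without Pd was not established at the level of all genes.

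PFKP (ENSG00000067057_at) gave 6.33, 6.40 and 6.35 in Control, 6.09, 6.71 and 6.07 in PIM, 6.30, 6.23 and 5.94 in Pd, and 6.61, 6.21 and 6.33 in PIM-Pd. The Control samples were close together and those of PIM and PIM-Pd lay on both sides of them, while the 3 Pd samples lay below all 3, by a narrow margin. The Pd difference was -0.20 with an interval of -0.56 to 0.15, at -0.03, -0.17 and -0.41 in the 3 experiments, and did not pass (adjusted p = 0.643). It was -0.09 without Pd replicate 3. The PIM-Pd difference was 0.02 with an interval of -0.33 to 0.38, and it turned to -0.02 when arrays were re-centred on their medians and to -0.01 with array weights.

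**Figure D3:**
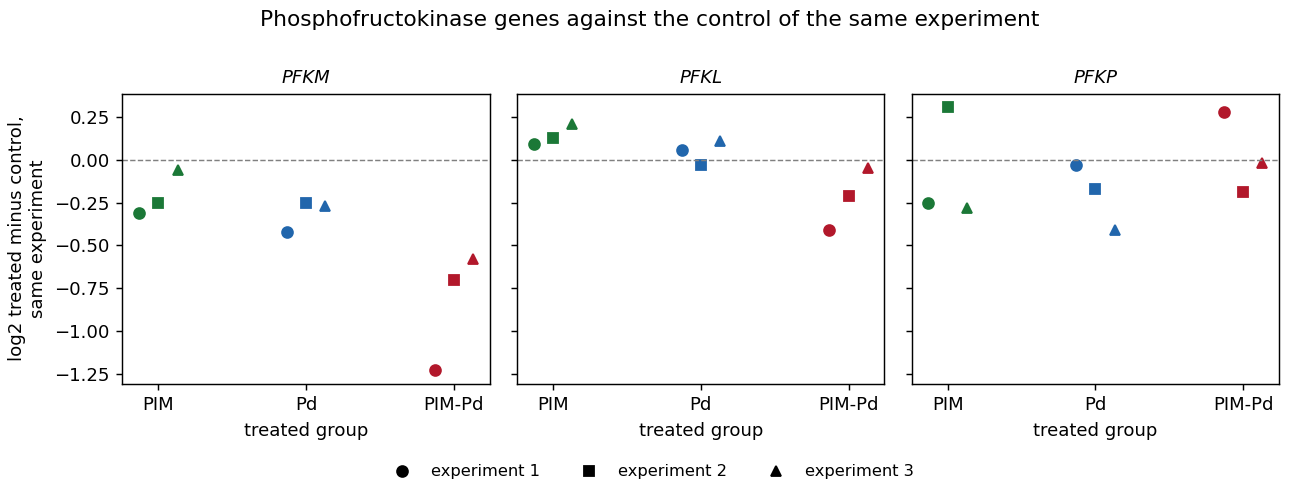
The vertical axis is the log2 value of a treated sample minus that of the control from the same experiment, for the 3 phosphofructokinase genes in separate panels, with a marker shape for each experiment. In PIM-Pd the PFKM points lie between -1.23 and -0.58, the PFKL points between -0.41 and -0.05, and the PFKP points on both sides of 0.

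The balance between the 3 genes was compared within each array, a comparison chosen after the data were seen. The PFKM to PFKL log2 ratio shifted from Control by -0.35 in PIM, -0.36 in Pd and -0.61 in PIM-Pd, with no overlap between any treated group and Control. The PFKM to PFKP ratio shifted by -0.86 in PIM-Pd, also without overlap, and by -0.14 and -0.11 in PIM and Pd, where the groups overlapped. Each shift without overlap had a two-sided exact permutation p of 0.1, the smallest that 3 samples against 3 allow, and 0.15 after adjustment over the 6 ratios compared. This permutation test cannot reach 0.05, and no other test of the ratios was run. Against the control of the same experiment, the PFKL ratio shifted by -0.40, -0.38 and -0.27 in PIM, -0.47, -0.22 and -0.38 in Pd, and -0.82, -0.49 and -0.53 in PIM-Pd. The PFKP ratio shifted by -0.07, -0.56 and 0.22 in PIM, -0.38, -0.09 and 0.14 in Pd, and -1.51, -0.51 and -0.57 in PIM-Pd. The PIM shift of the PFKP ratio turned to 0.13 without PIM replicate 2, the sample with the highest PFKP value. Such ratios describe 1 gene relative to another and do not show that either held its level. Whether the genes changed unequally was left undecided, because the only test run could not reach 0.05.

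ALDOA (ENSG00000149925_at), aldolase A, splits fructose 1,6-bisphosphate into the 3-carbon sugars. It had Control values of 10.82, 11.18 and 11.08, PIM values of 10.72, 10.80 and 10.84, Pd values of 10.54, 10.84 and 10.85, and PIM-Pd values of 10.82, 10.80 and 10.84. Control replicate 1 sat at the level of the treated samples and the other 2 Control samples were above them. Differences from Control were -0.24, -0.28 and -0.20 in PIM, Pd and PIM-Pd, and none passed (adjusted p 0.805, 0.232 and 0.403). The Pd difference was -0.18 without Pd replicate 1 and the PIM-Pd difference -0.13 without Control replicate 2.

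PGK1 (ENSG00000102144_at), phosphoglycerate kinase 1, makes the first ATP of the pathway. Its values were 9.70, 9.50 and 9.62 in Control, 9.55, 9.07 and 9.26 in PIM, 9.23, 9.30 and 9.05 in Pd, and 8.90, 8.99 and 8.84 in PIM-Pd. All PIM-Pd samples were below the other 9, Pd did not overlap with Control, and PIM overlapped with both. The PIM-Pd difference from Control was -0.70 ± 0.13 (SE), 61.7% of the Control level with an interval of 51 to 74.7%, and passed (adjusted p = 0.00327), with adjusted p of 0.000977 to 0.0182 over the 19 refits, though not under the fold rule. Experiments 1, 2 and 3 gave -0.80, -0.50 and -0.78. Pd alone gave -0.41 (adjusted p = 0.0861), which passed with array weights (0.0326) and with only the Pd and Control samples fitted (0.0484), in a range of 0.0326 to 0.305. PIM alone gave -0.31 (adjusted p = 0.775), and -0.20 without PIM replicate 2. PIM-Pd was at -0.38 from PIM (adjusted p = 0.107; 0.0489 without PIM replicate 2, in a range of 0.0489 to 0.361) and at -0.28 from Pd (adjusted p = 0.568). The difference from PIM was -0.50 without PIM replicate 2 and -0.25 without PIM replicate 1. The departure from additivity was 0.03 with an interval of -0.36 to 0.42.

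ENO1 (ENSG00000074800_at), enolase 1, forms phosphoenolpyruvate. It was at 11.78, 11.65 and 11.67 in Control, 11.54, 11.69 and 11.45 in PIM, 11.19, 11.46 and 11.22 in Pd, and 11.05, 11.14 and 11.16 in PIM-Pd. PIM and Control overlapped, Pd lay below Control, and PIM-Pd lay below Pd by a narrow margin. ENO1 was the only 1 of the 9 enzymes called in both Pd and PIM-Pd against Control, with log2 differences of -0.41 ± 0.11 (SE, adjusted p = 0.0444) and -0.59 ± 0.11 (SE, adjusted p = 0.00365). These are 75.2% and 66.6% of the Control level, with intervals of 63.8 to 88.6% and 56.5 to 78.4%, and both were negative in 3 of 3 experiments.

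The PIM-Pd call of ENO1 held in all 19 refits (adjusted p 0.000335 to 0.0201), though not under the fold rule. The Pd call was lost without Control replicate 1, 2 or 3 (0.169, 0.0836 and 0.103), Pd replicate 1 or 3 (0.179 and 0.165), PIM replicate 1 (0.0523), or PIM-Pd replicate 2 or 3 (0.0546 and 0.0535), in a range of 0.00992 to 0.179. The PIM-Pd to Pd difference was -0.18 with an interval of -0.41 to 0.06 and did not pass (adjusted p = 0.687). It was -0.09 without Pd replicate 2.

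PKM (ENSG00000067225_at), pyruvate kinase M, makes pyruvate and the last ATP, and its 2 splice forms M1 and M2 were not told apart by a gene-level value. Control samples were at 9.65, 9.93 and 10.14, PIM at 8.98, 9.23 and 9.94, Pd at 9.71, 9.82 and 10.01, and PIM-Pd at 9.27, 9.60 and 9.66. PIM replicate 3 stood among the Control samples, though below the control of its own experiment, and the other 2 PIM samples were below all of them. The PIM difference of PKM was -0.52 with an interval of -0.96 to -0.08, and it did not pass (adjusted p = 0.753). With the replicate number as a block the interval was -0.81 to -0.23, and the difference did not pass either (adjusted p = 0.5). The unblocked difference was -0.32 without PIM replicate 1 and -0.80 without PIM replicate 3. The Pd difference was -0.06 (adjusted p = 0.946) and the PIM-Pd difference -0.40 (adjusted p = 0.31). Within experiments PKM was below its control in 3 of 3 in PIM (-0.67, -0.70 and -0.20) and in PIM-Pd (-0.38, -0.34 and -0.48).

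PIM-Pd (10 h) against Pd (15 h) differs both in PIM447 and in exposure time, which cannot be told apart. In this comparison limma called 0 of the 9 enzymes beside 0.0791% of all genes (14 of 17710, in either direction). At an unadjusted p under 0.05, 3 of the enzymes and 1518 genes were found. Within experiments, 6 of the 9 (GPI, PFKM, PFKL, PGK1, ENO1 and PKM) were lower in PIM-Pd than in Pd in 3 of 3, as were 16.7% of all genes (2950 of 17710). The same 6 had PIM-Pd samples below all Pd samples with no overlap, as did 7.79% of all genes (1380 of 17710). HK2, PFKP and ALDOA gave 0.17, 0.23 and 0.08, with none passing. Without PIM-Pd replicate 1 the HK2 difference was 0.03 and the PFKP difference 0.11.

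PIM-Pd (10 h) against PIM (24 h) differs both in Pd and in exposure time, which likewise cannot be told apart. There 2 of the 9 enzymes were lower, PFKM and ENO1, beside 2.71% of all genes (480 of 17710). The ENO1 difference was -0.44 ± 0.11 (SE, adjusted p = 0.0288). It lost the call with array weights (0.0644), with only the PIM and PIM-Pd samples fitted (0.102), without PIM replicate 1 or 2 (0.0647 and 0.103), and without PIM-Pd replicate 1, 2 or 3 (0.0854, 0.0644 and 0.0593), in a range of 0.0055 to 0.103. PFKL had -0.37 (adjusted p = 0.0698), and the remaining differences that were below 0 belonged to HK2, GPI and PGK1.

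For a departure from additivity limma called 0 of 9 enzymes, beside 0.0169% of all genes (3 of 17710, in either direction). An unadjusted p under 0.05 was found for 1 of the enzymes, PFKL, and 1033 genes. The groups of this contrast differ in exposure time as well as in treatment, so it does not isolate the agents. The differences ranged from -0.41 for PFKL to 0.48 for HK2, and the HK2 value was 0.23 without PIM replicate 2. The HK2 interval ran from -0.15 to 1.11, which holds sizeable departures above 0 but only small ones below it.

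Each agent was also averaged over its 2 backgrounds in the same fit, a choice made after the data were seen. Exposure times differ between these groups too, so the averages mix agent and time. The average of Pd minus Control and PIM-Pd minus PIM had 4 of the 9 enzymes lower, beside 5.72% of all genes (1013 of 17710). ENO1 was at -0.43 (adjusted p = 0.00199), PFKM at -0.47 (0.00206), PGK1 at -0.40 (0.00922) and HK2 at -0.53 (0.0293). HK2 lost this call without Control replicate 2 or 3 (0.079 and 0.0566), PIM replicate 1 or 3 (0.0738 and 0.0619), Pd replicate 1 or 3 (0.052 and 0.082), or PIM-Pd replicate 2 or 3 (0.073 and 0.0584), in a range of 0.00336 to 0.082.

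The average of PIM minus Control and PIM-Pd minus Pd had 0 of the 9 enzymes called in limma, beside 0.0282% of all genes (5 of 17710, in either direction), and 4 of the enzymes and 1681 genes at an unadjusted p under 0.05. Those 4 were PKM at -0.43 (adjusted p = 0.36), PFKM at -0.37 (0.231), GPI at -0.31 (0.387) and PGK1 at -0.30 (0.31). In the Pd average GPI was at -0.03 with an interval of -0.27 to 0.20 and PKM at 0.03 with an interval of -0.28 to 0.34, and whether an enzyme responded differently to the 2 treatments was not tested.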

How the data were processed

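Total RNA of 12 MM.1S samples was hybridised to Clariom S arrays. The deposited values are log2 expression per gene, which the authors made by RMA (oligo 1.44.0 in R 3.5.0, per the submitters' processing notes) with a custom probe annotation by Ensembl gene. All 17710 genes were used without a filter, and no arrays held identical values. Differences were tested with limma 3.58.1 in R 4.3.3 (lmFit and eBayes, a mean per group over all 12 samples), two-sided, with Benjamini-Hochberg adjustment over all genes, called at an adjusted p under 0.05, after a test on simulated data. RMA shares information between arrays and assumes alike distributions, so a shift of all genes would not be seen, and the number of arrays limits the precision.

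The labels give the replicate numbers as pairs and the design text gives 3 independent experiments. Deviations from group means of same-numbered samples correlated at -0.10 to 0.30 over 18 pairs, 9 of them above 0.1. Alternatives were the replicate block, a filter on dim genes, re-centring, quantile normalization, a variance trend together with robust moderation, array weights, a fit of the groups compared, a fold rule, and leaving out each sample. The averaged contrasts and ratios were added after seeing the data.

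The members and lists were chosen with earlier results of these data known. All members were to be named. Another 9 lists with 124 symbols of related pathways and cell markers were not analysed here, because the RefSeq gene table (GRCh38.p14) used for names held 0 Ensembl entries to match to the 17710 identifiers. Promoter sequences came from RefSeq.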

Additional observations from a re-analysis of the deposited data

How the results depend on the processing

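Over 19 refits (7 other settings and 12 left-out samples), the calls of PFKM, PGK1 and ENO1 in PIM-Pd against Control, and of PFKM against PIM, kept direction and threshold. With the replicate number as a block, 2, 3 and 2 enzymes were called in Pd and PIM-Pd against Control and in PIM-Pd against PIM, and the block changed no call of an enzyme. The fold rule left 0 enzymes in Pd and PIM-Pd against Control, in PIM-Pd against PIM and in the Pd average, because no enzyme reached a log2 difference of 1. It left 191, 255, 1, 173, 0 and 144 genes in Pd, PIM-Pd against Control, PIM-Pd against Pd, PIM-Pd against PIM, and the PIM447 and Pd averages. Array weights gave 1516 genes with Pd and 1 enzyme in PIM-Pd against PIM. Fitting only the groups compared gave 455 genes and 1 enzyme in PIM-Pd against PIM and 1 gene against Pd, where quantile normalization gave 8 and the variance trend with robust moderation, changed together, 26 in place of 14. The cause was not tested.

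Leaving out 1 sample at a time gave 497 to 1049 genes and 0 to 2 enzymes with Pd, 1096 to 1771 genes with PIM-Pd, 2 to 15 genes against Pd, 648 to 953 genes and 1 to 2 enzymes against PIM, 0 to 3 genes for additivity and 0 to 2 for the PIM447 average. Differences that crossed 0 were all uncalled. Against Control they were PFKP (-0.28 to 0.04) in PIM; GPI (-0.13 to 0.05), PFKL (0.00 to 0.10) and PKM (-0.19 to 0.06) in Pd; and PFKP (-0.09 to 0.11) in PIM-Pd, which was also -0.02 re-centred and -0.01 with array weights. Against Pd ALDOA ran from -0.02 to 0.13, and against PIM GPI from -0.21 to 0.12, PFKP from -0.02 to 0.31 and PKM from -0.08 to 0.40. For additivity GPI ran from -0.19 to 0.14 (0.04 with array weights), PGK1 from -0.09 to 0.16, ENO1 from -0.09 to 0.05 and PKM from -0.02 to 0.46. In the PIM447 average HK2 ran from -0.17 to 0.05 and PFKP from -0.03 to 0.13, and in the Pd average GPI from -0.12 to 0.05, PFKP from -0.11 to 0.05 and PKM from -0.07 to 0.17. The PFKM to PFKP ratio in PIM ran from -0.28 to 0.13.

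No detection call was used. Signal over background was not measured, so how far it limits each enzyme was not tested.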
